A study of Mus musculus with 96 samples.

Results

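Single epithelial cells of the neonatal mouse uterus were divided by whether they carried transcripts of Mki67, the gene of the nuclear protein Ki-67, which cycling cells make and resting cells largely lack. Of the 96 cells measured, 88 had a Gapdh cycle threshold (Ct, the PCR cycle in which the signal appears; the lower the Ct, the more template) below 18 and were kept. Among these, 29 cells had an Mki67 Ct below 28 and are called Mki67-positive, and 59 had a Ct of 28 or above or none and are called Mki67-negative. The Mki67-positive share was 33.0% (exact Clopper-Pearson 95% interval 23.3 to 43.8%), and all such intervals here cover counting error only. Cells were selected on the measured Mki67 Ct, and on the Gapdh Ct, of the same table, so the split defines a range of Mki67 signal and not a cell type.

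All cells belong to 1 labelled group: the uterus of mice at postnatal day 7 was dissociated with type I collagenase, and CD326+ cells (CD326 is the EpCAM protein) were sorted singly into the wells of a plate. The labels name no strain, genotype or number of animals. Each cell was lysed, reverse transcribed and preamplified, and 96 assays were run on it by quantitative PCR. Every cell belongs to the same group and no animal is named, so the 2 classes share their source, cells are not replicates, and no test between the classes was possible. Differences are given as descriptions with a fixed size rule, 20 percentage points for a share of cells and 1 cycle for a level.

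At this age the uterine epithelium is a single immature layer that grows quickly and begins to bud into glands. Ki-67 protein coats chromosomes in mitosis, and its transcript is made mainly from S phase onward, so a cell early in the cycle can hold little of it. A cell that grows and copies its genome also tends to hold more RNA, and a scarce transcript is more easily found in a cell with more RNA. The number of detected assays per cell and the Gapdh Ct therefore accompany each comparison.

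The promoter of the gene that defines the classes is shown because cell-cycle genes are commonly regulated through CCAAT boxes and the CHR element, and that of Ezh2 because it was the other gene linked to proliferation with a higher share in Mki67-positive cells. Both are RefSeq sequences of build GRCm38.p6, 300 bases around the annotated start, and both lie on the minus strand. Mki67 is at chr7:135716330-135716629 and Ezh2 at chr6:47594981-47595280. Capitals mark TTTGAA (the CHR letters) and CCAAT on either strand, and the motifs do not overlap.
Mki67: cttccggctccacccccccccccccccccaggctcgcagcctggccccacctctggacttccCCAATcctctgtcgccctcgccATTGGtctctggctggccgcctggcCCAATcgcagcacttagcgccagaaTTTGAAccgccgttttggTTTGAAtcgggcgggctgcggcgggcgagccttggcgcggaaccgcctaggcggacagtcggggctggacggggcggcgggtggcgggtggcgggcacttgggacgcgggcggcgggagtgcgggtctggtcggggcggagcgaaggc
Ezh2: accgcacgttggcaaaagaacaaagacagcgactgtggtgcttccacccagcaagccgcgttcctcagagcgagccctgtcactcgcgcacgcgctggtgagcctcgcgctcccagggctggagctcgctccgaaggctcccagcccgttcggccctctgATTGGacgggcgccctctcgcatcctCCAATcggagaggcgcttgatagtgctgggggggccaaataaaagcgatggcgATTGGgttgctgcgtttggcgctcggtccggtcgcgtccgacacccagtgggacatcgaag
The Mki67 promoter held 2 matches of TTTGAA and 3 of CCAAT, and the Ezh2 promoter held 0 and 3. Of 32851 promoters of the same length, 17.9% held TTTGAA at least once and 37.4% held CCAAT at least once. TTTGAA was present at least 2 times in 2.31% and CCAAT at least 3 times in 3.37%. These are letter matches, not measured sites, and the PCR data do not bear on them.

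Mki67 lay near the limit of detection in most positive cells. Its Ct ran from 19.8 to 27.97 with a median of 26.2. In 13 cells it was below 26 and in 16 cells from 26 to below 28. The last cells inside the limit had Ct values of 27.82, 27.91 and 27.97, and the first outside had 28.07, 28.44 and 28.49. Of the 59 Mki67-negative cells, 7 had such a late Ct, up to 29.0, and 52 had none. The Gapdh limit of 18 lay in a gap between the last cell kept, at 16.5, and the first left out, at 18.3, which was close to it. None of the 8 cells left out had an Mki67 Ct below 28.

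Mki67-positive cells held more template and detected more assays. Gapdh, a glycolytic enzyme gene, had a median Ct of 11.4 (range 9.43 to 14.1) in them, against 13.6 (range 10.2 to 16.5) in Mki67-negative cells. This is 2.15 cycles earlier, or 4.45 times the template if each cycle doubles the product. The classes overlapped, but 26 of the 29 Mki67-positive cells were at or below the median Gapdh Ct of the Mki67-negative cells. Actin followed Gapdh, with a median Ct of 12.0 against 14.4. Of the 95 assays other than Mki67, Mki67-positive cells detected a median of 58 (range 32 to 77), and Mki67-negative cells detected a median of 53 (range 22 to 75). Within the Mki67-positive cells the Mki67 Ct was weakly related to the Gapdh Ct (Spearman rho = 0.42 and Pearson r = 0.37 over 29 cells, and r = 0.31 with the 2 most extreme cells left out). It was hardly related to the number of detected assays (rho = -0.08, r = -0.11, and -0.08 without 2 cells). Cells share a chip and a group with no animal named, so these are descriptions. Whether a cell without an Mki67 Ct lacked the transcript or held too little RNA for it to be found cannot be told apart.

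**Figure D1:**
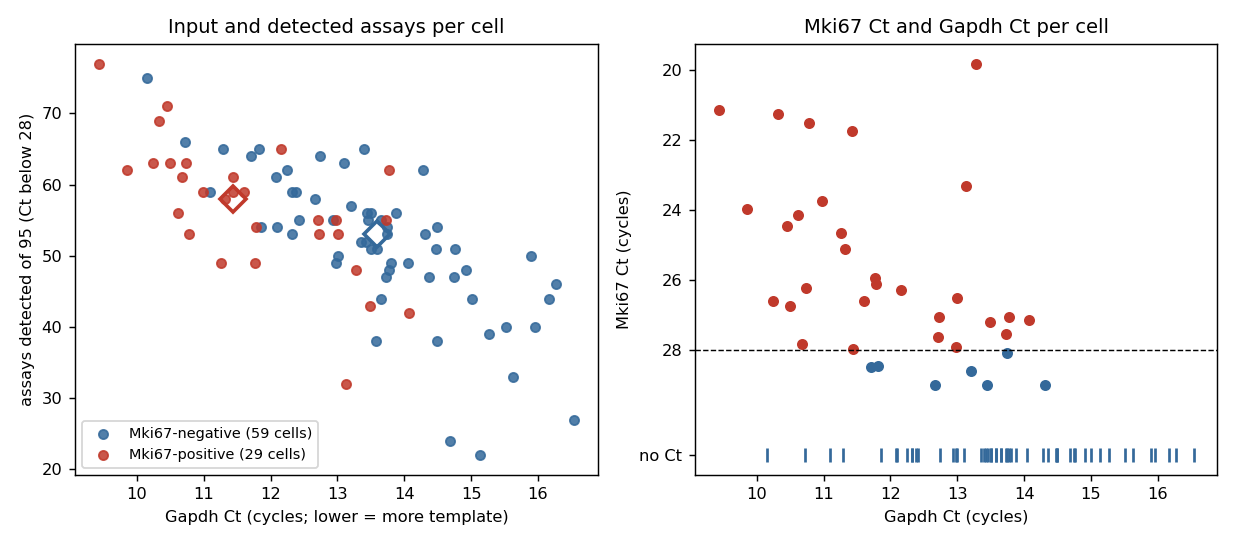
The left panel plots, for each of 88 cells, the Gapdh Ct (cycles) against the number of 95 assays detected, with an open diamond at each class median; the right panel plots Mki67 Ct against Gapdh Ct, with a dashed line at the limit of 28 and a tick for each cell without an Mki67 Ct. Mki67-positive cells (red) lie toward low Gapdh Ct, with medians of 11.4 and 58 assays against 13.6 and 53 in Mki67-negative cells (blue), and the classes overlap in both measures.

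Mki67-positive cells were unevenly placed in the numbering of the cells. When the cell numbers are taken in runs of 12, the number of columns of a 96-well plate, places 7 to 12 of the runs held 24 Mki67-positive cells among 47 (51.1%, interval 36.1 to 65.9%). Places 1 to 6 held 5 among 41 (12.2%, interval 4.08 to 26.2%). All 13 cells with an Mki67 Ct below 26 were in places 7 to 12. The median Gapdh Ct was 12.1 in places 7 to 12 and 13.7 in places 1 to 6, and the median number of detected assays was 56 against 51. This division was chosen after its values were seen, and the labels do not tie a number to a well. The part of place in the differences was not tested. Many of the results, though not all, are therefore also given within places 7 to 12, where 24 Mki67-positive and 23 Mki67-negative cells stand. There the Gapdh Ct still differed, with medians of 11.4 and 13.0, and the detected assays numbered 58.5 and 55.

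**Figure D2:**
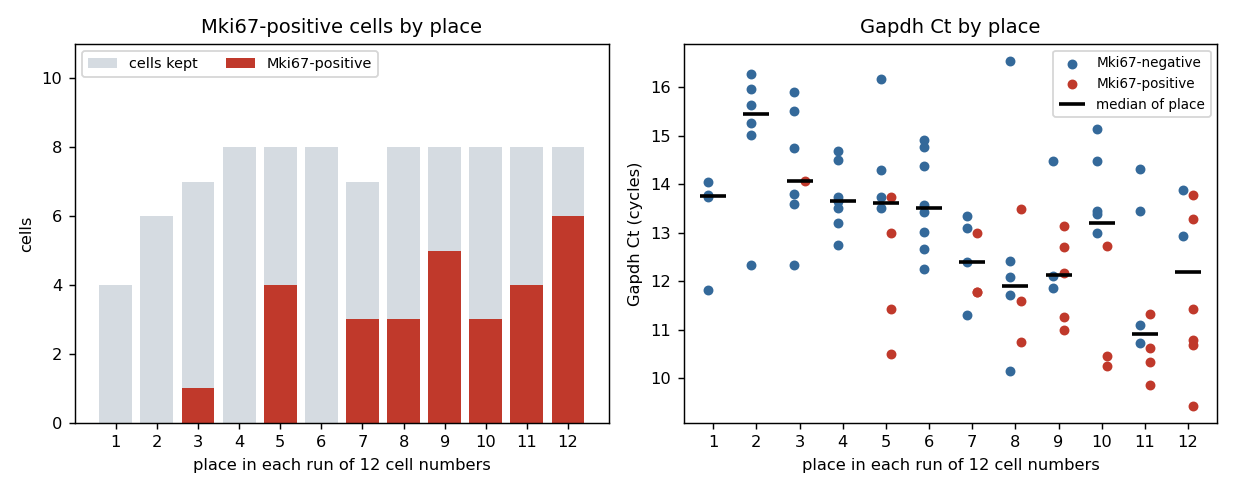
The left panel gives, for each place from 1 to 12 in the runs of 12 cell numbers, the cells kept (grey bars) and the Mki67-positive cells among them (red); the right panel gives the Gapdh Ct (cycles) of each cell by place with the median of each place as a black bar. Places 7 to 12 hold 24 of the 29 Mki67-positive cells and mostly lower Gapdh Ct values.

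Genes of simple epithelium were detected in both classes, beside markers of other cell types that are given below. All 88 cells detected at least 1 of Krt8, Krt18 and Krt19, the keratin genes of simple epithelium, and Epcam, the gene of the sorted antigen, was detected in 70 cells (79.5%). Epcam was found in 22 of 29 Mki67-positive cells (75.9%) and 48 of 59 Mki67-negative cells (81.4%). The 2 classes differed most in the cells with the fewest detected assays, where Epcam was found in 1 of 6 Mki67-positive and 21 of 26 Mki67-negative cells. Krt18 was found in 87 cells, Krt19 in 87, Krt8 in 84 and Cdh1, the E-cadherin gene, in 82. All 29 Mki67-positive cells carried Cd24a, a surface glycoprotein gene, as did 55 of the 59 others. Of the 6 measured genes of simple epithelium none differed by 20 points. Over all 94 assays compared, 8.51% were higher and 2.13% lower by that size. The median difference in share was 1.67 points for the 6 genes and 6.40 over all 94 assays.

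Over the panel, most assays were found in more of the Mki67-positive cells. Of 94 assays compared, 66 had a higher share in Mki67-positive cells, 24 a lower one and 4 an equal one. The median difference was 6.40 points over all kept cells and 2.45 within places 7 to 12. Over all kept cells the size rule of 20 points was met by 8 assays on the higher side (8.51%) and 2 on the lower side (2.13%). To compare cells with like numbers of detected assays, the cells were divided into 3 strata by that number, without Mki67 and the assay itself, and the differences within strata were averaged, weighted by the Mki67-positive cells. The stratum with the fewest assays holds only about 6 of these cells for most assays. The median difference was then 1.42 points, with 52 assays higher and 38 lower. The number of detected assays is counted from these same assays, so the strata make the median smaller by construction. With strata of Gapdh Ct instead, the median was -0.54 points, and with strata of place 2.77. At equal detected assays 1 assay was at least 20 points higher (1.06%) and 3 were at least 20 points lower (3.19%). The exact intervals of the 2 classes overlapped for all 94 assays, which is not a test of any difference.

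**Figure D3:**
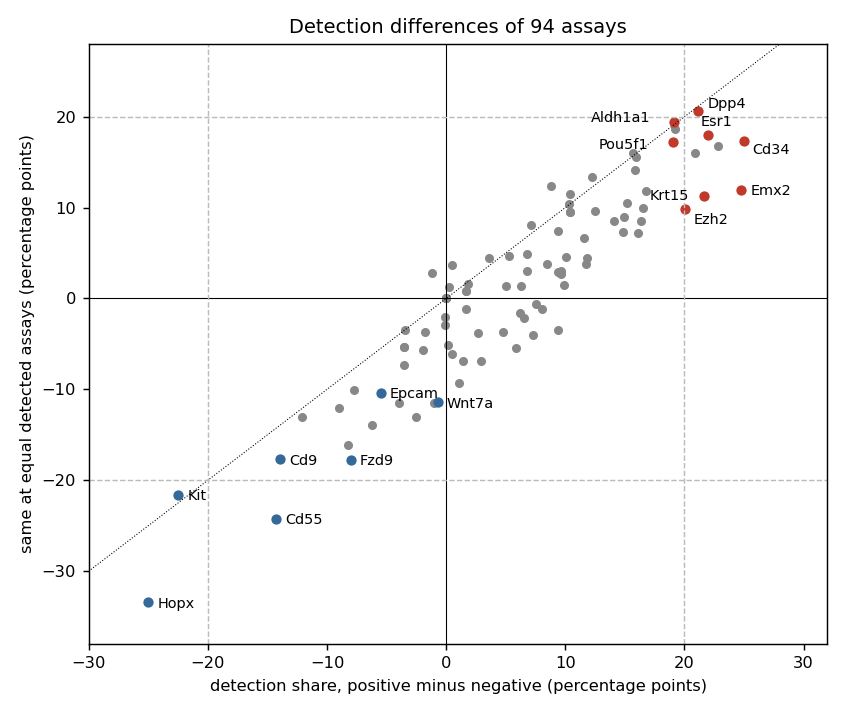
Each point is 1 of 94 assays: the horizontal axis gives the detection share in Mki67-positive minus Mki67-negative cells in percentage points, and the vertical axis the same difference averaged within 3 strata of detected assays, with dashed lines at 20 points and a dotted line of equality. Most points lie below the dotted line; Hopx, Cd55 and Kit are the assays beyond 20 points on the lower side of the vertical axis and Dpp4 the assay beyond it on the upper side.

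Hopx, Kit and Cd55 were found in fewer Mki67-positive cells. Hopx encodes a small homeodomain-only protein that restrains proliferation in several tissues and marks slowly cycling stem cells in some of them. It was detected in 7 of 29 Mki67-positive cells (24.1%, interval 10.3 to 43.5%) and 29 of 59 Mki67-negative cells (49.2%, interval 35.9 to 62.5%). The difference of -25.0 points became -33.4 points at equal detected assays. It was present in each stratum, at 16.7% against 40.0% in the cells with the fewest assays, 20.0% against 45.5% in the middle and 30.8% against 75.0% in the cells with the most. These rest on 6, 10 and 13 Mki67-positive cells. Hopx thus had the largest difference of the 94 assays on the lower side. Mki67-positive cells held more template, and the part of template in this difference was not tested. Within places 7 to 12 Hopx was found in 6 of 24 against 10 of 23 cells, a difference of -18.5 points. Its share did not order with Mki67 signal, being 30.8% (4 of 13, interval 9.09 to 61.4%) in the cells with an Mki67 Ct below 26 and 18.8% (3 of 16, interval 4.05 to 45.6%) in those from 26 to below 28.

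Kit, the gene of the stem cell factor receptor, was nearly universal in Mki67-negative cells. It was detected in 56 of 59 of them (94.9%, interval 85.9 to 98.9%) and in 21 of 29 Mki67-positive cells (72.4%, interval 52.8 to 87.3%). The difference was -22.5 points, and -21.6 at equal detected assays. It was -29.6, -19.4 and -19.5 points in the 3 strata from fewest to most assays. Within places 7 to 12 it was -24.6 points, 16 of 24 against 21 of 23. In those that detected it, Kit came at a mean Ct of 22.9 in Mki67-positive and 23.8 in Mki67-negative cells. With a Ct limit of 24 for the assays compared, which drops many of these late values, the difference at equal detected assays was -10.4 points.

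Cd55, a complement regulator gene of the cell surface, differed by -14.3 points (17 of 29 against 43 of 59 cells) and by -24.3 points at equal detected assays. The strata did not share a direction, with differences of -47.3, 22.5 and -40.0 points. Place went with it: Cd55 was found in 26 of 47 cells in places 7 to 12 (55.3%) and 34 of 41 in places 1 to 6 (82.9%). Within places 7 to 12 the classes were alike, with 13 of 24 and 13 of 23 cells, a difference of -2.36 points. All 3 of Hopx, Kit and Cd55 were present in 13.8% of Mki67-positive cells (4 of 29) and 44.1% of Mki67-negative cells (26 of 59), a count chosen after the values were seen. The 3 genes were picked because each was lower in Mki67-positive cells, so this joint count is no further evidence of a difference.

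Other genes toward the lower side at equal detected assays were Fzd9, a WNT receptor gene, at -17.8 points, the tetraspanin gene Cd9 at -17.7, and Fut4, which makes the SSEA1 carbohydrate, at -13.9. Fzd7, a WNT receptor gene, followed at -13.0, the integrin gene Itga5 at -13.0 and the smooth muscle actin assay sma at -12.0. None of these reached 20 points. Mme, a surface peptidase gene, and Hprt, a reference gene, were both at -6.90. Cd9 was detected in 22 of 29 and 53 of 59 cells and Fzd7 in 25 of 29 and 58 of 59. Wnt7a, a WNT ligand gene of the uterine epithelium, was at -0.70 points, and -11.4 at equal detected assays.

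**Figure D4:**
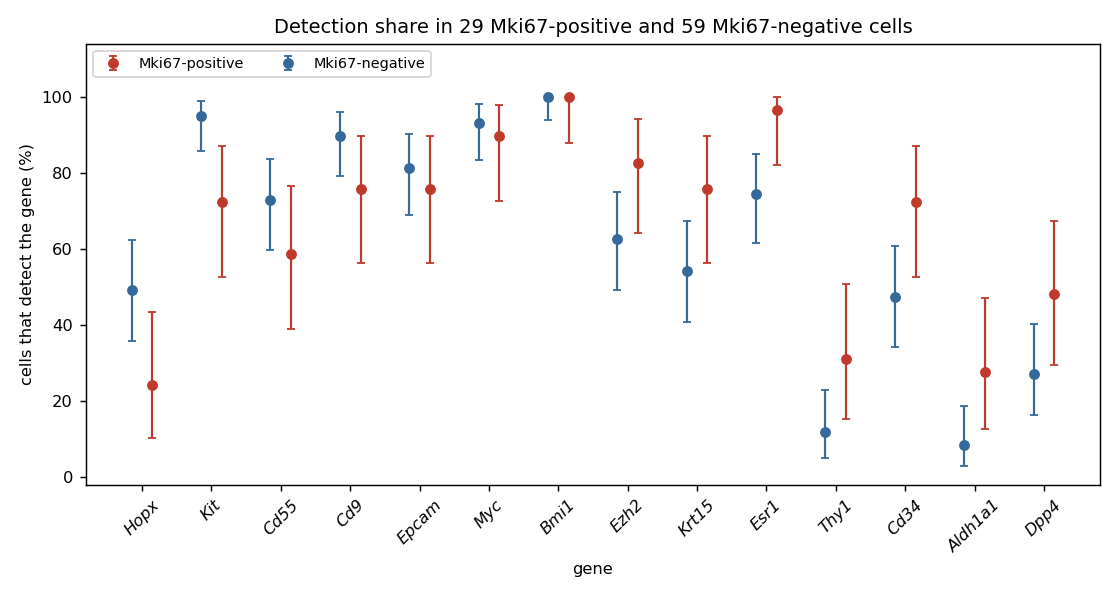
Points give the percentage of 29 Mki67-positive (red) and 59 Mki67-negative (blue) cells that detected each gene, and bars the exact 95% interval for counting error. Hopx, Kit, Cd55 and Cd9 are lower in the Mki67-positive cells, Bmi1 is at 100% in both, and Ezh2, Krt15, Esr1, Thy1, Cd34, Aldh1a1 and Dpp4 are higher; all pairs of intervals overlap.

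On the higher side Dpp4 and Aldh1a1 had the largest differences at equal detected assays. Dpp4, a surface peptidase gene, was detected in 14 of 29 Mki67-positive cells (48.3%, interval 29.4 to 67.5%) and 16 of 59 Mki67-negative cells (27.1%, interval 16.4 to 40.3%). The difference was 21.2 points, 20.6 at equal detected assays and 23.9 within places 7 to 12. Dpp4 was found in 9 of the 13 cells with an Mki67 Ct below 26 (69.2%, interval 38.6 to 90.9%) and in 5 of the 16 from 26 to below 28 (31.2%, interval 11.0 to 58.7%). Aldh1a1, an enzyme gene of retinoic acid synthesis used as a progenitor marker, was found in 8 of 29 (27.6%) and 5 of 59 cells (8.47%). The difference was 19.1 points, 19.4 at equal detected assays and 24.6 within places 7 to 12 (8 of 24 against 2 of 23). It too was commoner where Mki67 was earlier, in 6 of 13 against 2 of 16 cells. The former cells had a median Gapdh Ct of 11.0 and 58 detected assays, the latter 12.4 and 57.

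Other genes with large differences on this side, at equal detected assays, were Thy1 at 18.6 points, Esr1 at 18.0, Cd34 at 17.3, Pou5f1 at 17.2, Fzd10 at 16.8, Itga2 at 16.0 and Lrig1 at 15.5. With a Ct limit of 24 for the assays compared, Thy1 was at 4.31 points and Itga2 at 4.90, while Cd34 was at 31.7. Esr1, which encodes estrogen receptor alpha, was detected in 28 of 29 Mki67-positive cells (96.6%, interval 82.2 to 99.9%) and 44 of 59 Mki67-negative cells (74.6%, interval 61.6 to 85.0%). Its difference was 30.8, 15.2 and 14.3 points in the strata from fewest to most assays and 17.6 points within places 7 to 12. Nearly every Mki67-positive cell thus carried the Esr1 transcript, as did most of the others. Pgr, the progesterone receptor gene, differed by 9.64 points, and by 2.72 at equal detected assays. With a Ct limit of 26 for every assay, Mki67 included, these were 35.6 and 29.5 points, and with a limit of 24 for the assays compared 24.4 and 17.5.

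Several higher shares went with place. Cd34, a sialomucin gene of endothelial and progenitor cells, was at 72.4% against 47.5% over all kept cells but at 17 of 24 against 15 of 23 cells within places 7 to 12, a difference of 5.62 points. Lrig1, a gene of a growth factor receptor inhibitor, differed by 15.9 points over all kept cells and 2.72 there. Emx2, a homeobox gene of the female tract, differed by 24.8 points, 11.9 at equal detected assays and 10.1 within places 7 to 12, and is named outside the rule because its difference of 24.8 points was seen. By contrast Fzd10, a WNT receptor gene, was at 14 of 24 against 6 of 23 cells there (32.2 points), and Itga2, an integrin gene for collagen binding, at 10 of 24 against 2 of 23 (33.0 points). In places 1 to 6 both ran the other way, Fzd10 at 0 of 5 against 9 of 36 cells and Itga2 at 0 of 5 against 6 of 36, where 0 of 5 allows up to 52.2%. The strata of Fzd10 did not share a direction, with differences of -20.8, 40.6 and 17.6 points. Of the 8 assays at least 20 points higher over all kept cells, 3 were so within places 7 to 12, where 7 assays met the rule. Of the 2 on the lower side, 1 did, and it was Kit.

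The listed genes of proliferation and growth control did not share a direction. Apart from Mki67, 3 members of this list were measured. Ezh2, the Polycomb methyltransferase gene whose transcript is usually high in dividing cells, was detected in 24 of 29 Mki67-positive cells (82.8%, interval 64.2 to 94.2%) and 37 of 59 Mki67-negative cells (62.7%, interval 49.1 to 75.0%). The difference of 20.0 points, just at the size rule, became 9.83 at equal detected assays and was 26.7, 13.9 and 0.0 points from the stratum with the fewest assays to that with the most. Myc, a growth-promoting transcription factor gene, was found in 26 of 29 and 55 of 59 cells. Bmi1, the Polycomb gene that represses cell cycle inhibitors, was found in all 88. Its share therefore could not differ, and that of Myc had little room to be higher.

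Stem and progenitor markers were mixed as well. Of 14 listed adult epithelial stem cell markers, 11 had a higher and 2 a lower share in Mki67-positive cells, and at equal detected assays 9 were higher and 4 lower, with Hopx the 1 member past 20 points. Over all 94 assays the counts were 66 higher and 24 lower, and 52 and 38 at equal detected assays. The median at equal detected assays was 3.77 points for the listed markers, beside 1.42 over all 94 assays. Lgr5, the R-spondin receptor gene that marks cycling stem cells of the intestine, was found in 9 of 29 and 10 of 59 cells, a difference of 14.1 points, and 8.56 at equal detected assays. It was commoner where Mki67 was earlier: 7 of the 13 cells with an Mki67 Ct below 26 carried it (53.8%, interval 25.1 to 80.8%) and 2 of the 16 from 26 to below 28 (12.5%, interval 1.55 to 38.3%). Place moved with this gene too, since it was found in 15 of 47 cells in places 7 to 12 and 4 of 41 in places 1 to 6. Of 11 WNT and R-spondin genes, 5 were higher and 6 lower at equal detected assays, beside 52 and 38 of all 94 assays.

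Few members of the tract, gland and growth factor receptor lists were past the size rule, as over the whole panel, where 8.51% of assays were higher and 2.13% lower by it. Of 7 tract patterning genes, Emx2 alone was past 20 points, and 0 were at equal detected assays, where Hoxa10 was highest at 13.3 points (6 of 29 against 5 of 59 cells). Of 3 gland genes 2 were higher and 1 lower at equal detected assays, beside 52 and 38 of all 94 assays. Aldh1a1 was the highest of them at 19.4 points. The lower one was Sox9, a progenitor transcription factor gene, which differed by 5.84 points, and by -5.48 at equal detected assays. Of 5 insulin and growth factor receptor genes, Kit was past the rule, while Insr, the insulin receptor gene, differed by 16.5 and, at equal detected assays, 9.94 points. Krt15, a basal keratin gene, differed by 21.6 and 11.2 points. Trp63, the regulator of basal epithelium, was found in 2 of 29 and 4 of 59 cells. Of 8 pluripotency genes 3 were higher and 4 lower at equal detected assays, beside 52 and 38 of all 94 assays. Pou5f1, which encodes OCT4, was found in 6 of 29 Mki67-positive cells and 1 of 59 Mki67-negative cells, and Sox2 in 8 of 29 and 16 of 59. Neural progenitor genes ranged from -4.03 points for Nes to 7.37 for Msi1 at equal detected assays.

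Markers of other cell types were present in both classes. Of 13 endothelial, stromal and immune markers, Mki67-positive cells detected a median of 8 (range 2 to 12) and Mki67-negative cells a median of 7 (range 3 to 11). The medians over the whole panel were 58 and 53 detected assays. The summed level of these markers, on the log2 scale of 28 minus Ct, ranged from 10.5 to 16.6 with a median of 14.1 in the former and from 11.6 to 16.7 with a median of 13.5 in the latter. None of the 13 was at 0 in Mki67-positive or Mki67-negative cells. Of 7 stromal and mesenchymal markers 4 were higher and 3 lower at equal detected assays, beside 52 and 38 of all 94 assays. They ranged from -12.0 points for sma to 18.6 for Thy1. Vim, the vimentin gene of mesenchymal cells, was found in 4 of 29 and 2 of 59 cells. Thy1, a surface gene of stromal cells and lymphocytes, was found in 9 of 29 and 7 of 59 cells, and Eng, a co-receptor gene of endothelium and stroma, in 6 of 29 and 7 of 59. Ptprc, the leukocyte phosphatase gene CD45, was found in 19 of 29 and 38 of 59, and Il17ra, an interleukin receptor gene, in 19 of 29 and 29 of 59. Doublets or stray RNA as a source of these markers were not tested.

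Levels were compared as the Ct of each assay minus the Gapdh Ct of the same cell, over detecting cells, for 82 assays with at least 5 such cells in each class. Because Gapdh itself was earlier in Mki67-positive cells, most genes were lower relative to it. The median level difference was -0.45 cycles (-0.22 within places 7 to 12), with 56 assays lower and 26 higher over all kept cells. At least 1 cycle lower were 24 assays (29.3%) and at least 1 cycle higher 5 (6.1%); with the number of detected assays as a linear term these were 19 (23.2%) and 8 (9.76%). On the raw Ct scale the picture turned, since 74 of the 82 assays came earlier in Mki67-positive cells, with a median level difference of 1.35 cycles.

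Several genes far below Gapdh came slightly later in raw Ct as well. For Pecam1, an endothelial adhesion gene found in all 88 cells, the Ct minus Gapdh Ct was 4.37 ± 2.43 (SD, n = 29 cells; range 0.44 to 11.2, median 4.22) in Mki67-positive cells and 1.69 ± 1.93 (n = 59; range -1.73 to 12.3, median 1.45) in Mki67-negative cells. Its raw Ct averaged 16.1 and 15.3. The cells overlapped throughout. For Bmi1 the Ct minus Gapdh Ct was 4.44 ± 1.16 (range 2.48 to 7.00) and 2.38 ± 1.39 (range -1.31 to 5.21), while the raw Ct averaged 16.2 and 16.0. For Klf4, a zinc finger gene of epithelial differentiation, it was 7.55 ± 2.30 and 4.97 ± 1.83, and the raw Ct averaged 19.3 and 18.5. Across the detecting cells the Ct of Klf4 and Pecam1 hardly followed that of Gapdh (Spearman rho = 0.14 and -0.01, Pearson r = 0.08 and -0.17, and 0.02 and -0.20 with the 2 most extreme cells left out), and that of Bmi1 followed it weakly (0.34, 0.35 and 0.30). Relative to Gapdh these 3 genes were lower by 2.06 to 2.68 cycles, while their raw Ct was later by 0.18 to 0.79 cycles. Within places 7 to 12 the level differences relative to Gapdh were -2.43 cycles for Pecam1, -1.82 for Bmi1 and -1.90 for Klf4. With all 96 cells, the detection shares of Pecam1 and of Bmi1 each differed by only 4.48 points between the classes. Both were thus also detected in some of the cells left out for a late Gapdh Ct, and the source of this signal was not tested. Myc was 1.48 cycles lower relative to Gapdh and 0.48 cycles earlier in raw Ct. Thy1 had the largest difference at equal detected assays, -2.56 cycles (-3.60 without that term, 9 against 7 cells, and 1.40 cycles later in raw Ct), and Itga2 (-2.27) and sma (-1.92) were the other low ones.

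Few genes stood above the shift of Gapdh. Ezh2 had a Ct minus Gapdh Ct of 6.14 ± 1.76 (range 3.40 to 8.89, median 6.22, n = 24 cells) in Mki67-positive and 7.17 ± 1.76 (range 3.82 to 11.4, median 7.13, n = 37) in Mki67-negative cells, a level 1.03 cycles higher. The classes overlapped over most of their ranges. The difference was 1.01 cycles with detected assays as a term, 2.47 cycles in raw Ct and 0.77 within places 7 to 12. Relative to Gapdh, Ezh2 was thus higher by less than the SD between cells. Sall4, a zinc finger gene of embryonic stem cells, was 1.51 cycles higher (20 against 35 cells), Lgr5 1.42 (9 against 10), and Wnt5a, a WNT ligand gene, 1.10 (15 against 25). Eng was 1.81 cycles higher over 6 against 7 cells, and Hoxa11, a tract patterning gene, 0.97 and, at equal detected assays, 1.91. Within places 7 to 12 Hoxa11 was at -0.25 and Wnt5a at 0.46. Hoxa11 was at -2.01 with a Ct limit of 26 and likewise with a limit of 24. With a Ct limit of 24, Sall4 was at -0.33. Of the genes lower in share, Hopx, where detected, was 1.23 cycles lower relative to Gapdh, Kit 0.99 and Cd55 0.55. All 3 came earlier in raw Ct, by 0.91, 0.86 and 1.19 cycles. The reference gene Hprt was 0.47 cycles higher relative to Gapdh and actin 0.63 lower.

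**Figure D5:**
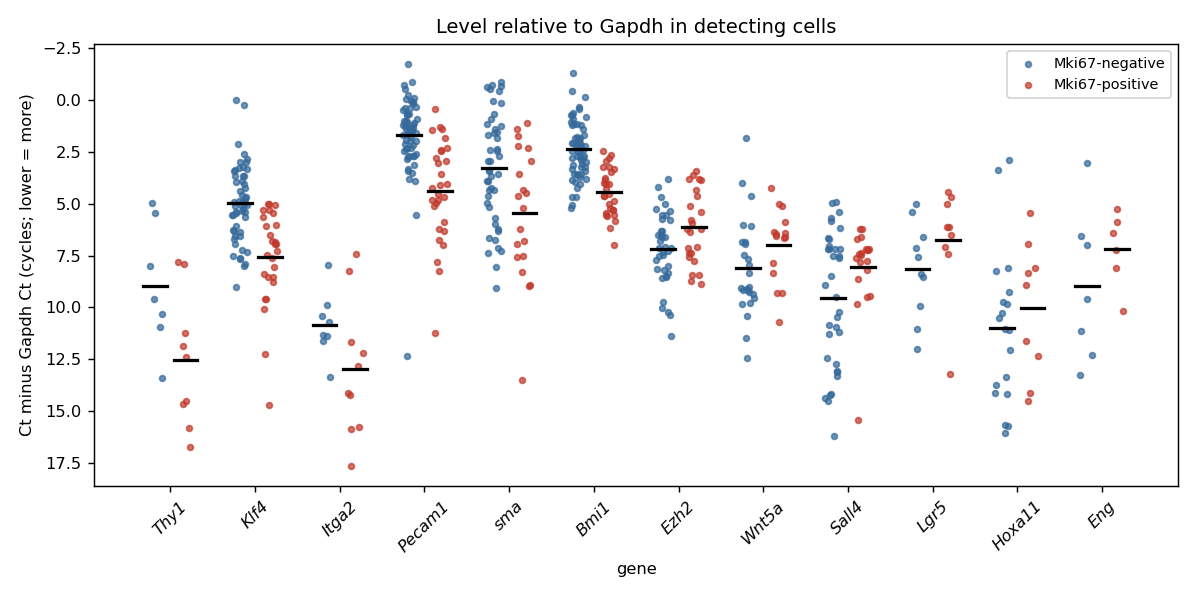
Each point is the Ct minus Gapdh Ct (cycles, axis reversed so that higher means more transcript) of 1 detecting cell, for the genes with the lowest and highest level difference at equal detected assays and for Bmi1 and Ezh2; black bars are class means. Pecam1, Klf4 and Bmi1 lie lower in Mki67-positive cells (red) and Ezh2, Sall4 and Lgr5 higher, with overlap in every gene.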

How the data were processed

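Per the labels' protocols, sorted cells were preamplified with a 1-step kit and measured with EvaGreen on a 96 by 96 Fluidigm Biomark chip. The deposited Ct values (unit score) are raw per the file headers, with 40 where no Ct was recorded. Baseline, threshold and quality settings are not stated in the labels. The authors also deposited fold changes, not used here. Columns were matched to cells through the number in the title.

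Gene names come from RefSeq symbols and synonyms (GRCm38.p6), CD designations or protein names; er, pr, p63 and aldh1 were read as Esr1, Pgr, Trp63 and Aldh1a1, and actin and sma kept their names. Primers were not checked.

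Kept cells had Gapdh Ct below 18; detected means Ct below 28. Differences in share were taken raw and within 3 strata (tertiles of detected assays, weighted by Mki67-positive cells). Levels are Gapdh Ct minus assay Ct, also in a linear fit with detected assays. The strata step was tested on simulated data. No p-value was computed. In detecting cells only, a level says nothing of undetected ones. Named genes were fixed references, the 10 highest and 10 lowest share differences, the 5 highest and lowest levels, list extremes and the proliferation list; 2 assays that the rule names are not reported here. The members and lists were chosen with earlier results of these data known. Alternatives changed the Ct limit, the cells, the strata and the normalization. Calculations used scipy 1.17.1, scikit-learn 1.9.0, numpy 2.4.6 and pandas 2.3.3 in Python 3.11.15, with plots from matplotlib 3.10.9.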

Additional observations from a re-analysis of the deposited data

How the results depend on the processing

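No paired analysis was possible because all cells form 1 group. The main results took 102 values under the alternatives, of which 61 stayed and 41 moved, by more than 1.5 times for counts of assays or by more than 1 SD between cells for medians. The difference in detected assays and in Gapdh Ct did not move by this rule, which is a wide one. The SD between Mki67-positive cells was 9.1 assays, beside a difference of 5, and 1.31 cycles, beside a difference of 2.15. Restriction to places 7 to 12, strata of Gapdh Ct and strata of place were chosen after the data were seen; no other cause of the moves was tested. The small number of cells in each class limits what any count can show.

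Assays at least 20 points higher and lower at equal detected assays, 1 and 3, numbered 9 and 5 with a Ct limit of 26 for every assay, Mki67 included (13 against 75 cells), and 9 and 7 without Mki67 Ct values from 26 to 28 (13 against 59 cells). The higher count was 4 with a limit of 24, 5 in cells with Epcam, 6 in places 7 to 12, 3 with strata of place, alone or with detected assays, and 2 in all 96 cells, with Gapdh below 16, without the 10% of cells with most assays, or with 5 strata. The lower count was 7 with strata of Gapdh Ct and 1 with either stratum of place. Before that adjustment, 8 and 2, they were 14 and 0 in all 96 cells; the higher count was 18 with Epcam and 13 without the middle Mki67 values, and the lower 1 with a limit of 24 and in places 7 to 12.

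Levels at least 1 cycle higher and lower, 5 and 24, were 15 and 11 with actin as reference, 52 and 1 without normalization, 18 and 8 against the assays found in 90% of cells, and 10 and 15 in places 7 to 12; the higher count was 0 with a limit of 24, 3 in all cells and 9 without the middle Mki67 values. With detected assays as a term, 8 and 19, they were 23 and 12, 41 and 2, and 24 and 9 under those normalizations, and the higher count was 4 with a limit of 24 and 14 without the middle values. Of 44 level differences of named genes 22 changed sign without normalization, 10 with actin as reference and 13 against the assays found in 90% of cells. Among those of at least 1 cycle, Aldh1a1 (0.56), Cd9 (0.78), Hopx (0.91), Myc (0.48), Sox2 (0.67) and Sox9 (0.44) changed sign without normalization, as did Aldh1a1 (0.39) with a limit of 26 and Sall4 (-0.33) with 24. The level of Hoxa11, 0.97 cycles higher, was at -2.01 with either limit.

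At equal detected assays Hopx stayed lower in all 13 alternatives, from -40.5 (strata of Gapdh Ct) to -17.4 points (limit of 26), Kit from -32.8 to -10.4, and Cd55 from -28.7 to -2.52 (strata of place). Dpp4 stayed higher, from 18.9 to 41.9, and Aldh1a1 from 12.8 to 40.0.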
